A study of Mus musculus with 4 samples.

Results

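The data described here are a pair of arrays from the caecum of wild-type mice (WT), the part of the study that sets a diet with prebiotics against the same diet without them in animals of normal genotype. Gene expression was measured on Affymetrix arrays in caecal tissue of C57Bl/6 mice aged 21 weeks, and each array held RNA pooled from 6 mice. All mice were fed an n-3 PUFA depleted-diet (PUFA, polyunsaturated fatty acids), which the control mice ate too. One WT pool is titled as fed that diet alone, and the other as given Orafti P95, an oligofructose, at a daily 250 mg per mouse through the final 15 days. The mice of a pool had been selected on the quality of their RNA. A second pair of arrays, from mice with the apoE knock-out (KO), had the same 2 diets and is used below only to set values side by side. It shares no array with the WT pair.

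Every difference below is the log2 value of the WT array titled with prebiotics minus that of the WT array titled without, so that 1 stands for a 2-fold higher value. The labels of these arrays contradict each other. Each carries 3 fields for one diet (title, treatment and source name), and 1 field, the description, for the other. Directions are therefore stated by title, and if the description were right, every sign below would turn. No diet was inferred from the values. With 1 array on each side there is no replicate error and no test. The limit of 2-fold, or a log2 difference of 1, describes size only. Of the 22180 genes with a probe set of their own, 12223 reached the array's median for such probe sets on at least 1 of the 2 arrays and were compared, and a value under that median (a log2 value close to 3 on both arrays) is called near background. The study has 4 arrays in all.

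As background, inulin-type prebiotics escape digestion in the small intestine and are fermented by bacteria in the caecum and colon to lactate and the short-chain fatty acids acetate, propionate and butyrate. Caecal and colonic epithelial cells take up these acids and burn butyrate as a fuel. The epithelium also meets bile acids that escaped the ileum, secretes antimicrobial proteins, and holds endocrine cells that release peptides into the blood. The nuclear receptor PPAR alpha switches on fatty acid oxidation genes when it binds fatty acids, and the factor Nrf2 switches on genes of glutathione synthesis and detoxification under oxidative or electrophilic stress.

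The tissue label was checked against markers. The pan-epithelial adhesion molecule Epcam had 10.31 on the array titled without and 10.24 on the array titled with prebiotics, the colonic carbonic anhydrase Car1 had 12.34 and 12.48, and the goblet cell mucin Muc2 differed by -0.05. Lactase (Lct), a small intestinal enzyme, and the pancreatic trypsinogen Prss2 were near background on both arrays. Lct belongs to the ileum-enriched list given below, whose other members include Alpi (6.69 and 8.52) and Slc10a2 (5.21 and 7.84). A share of ileal tissue was thus not tested by these markers. Across the 6 pairs of the 4 arrays, Pearson's r over all probe sets lay between 0.984 and 0.988, and 33 to 107 genes differed by 2-fold in either direction. The WT pair had 63 such genes, fewer than the 107 between the KO array with prebiotics and the WT array titled without, and an SD of its differences over genes of 0.27, within the range of 0.24 to 0.30 over the 6 pairs. Against the median of the other 3 arrays, 17 genes were 2-fold higher and 36 lower on the WT array titled without, and 28 higher and 7 lower on the WT array titled with. The counts were 14 higher and 31 lower for the KO array without prebiotics, and 41 higher and 9 lower for the KO array with them. Apoe had 3.90 and 4.09 on the WT arrays, against 2.83 and 3.13 on the KO arrays.

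On the WT array titled with prebiotics, 41 of 12223 genes (0.335%) were at least 2-fold higher and 22 (0.18%) at least 2-fold lower. At 1.5-fold the counts were 253 higher (2.07%) and 136 lower (1.11%). The median difference over all 12223 genes was 0.02, and 52.9% of them lay above 0. Of the genes at 2-fold, 31 higher and 16 lower are genes with established names, which are described below, and the others are mainly immunoglobulin segments and small nucleolar RNAs. Among these named genes, the higher group was led by the bile acid transporter Slc10a2, the amino acid transporter subunit Slc3a1, the antimicrobial lectin Reg3b and the monocarboxylate transporter Slc5a8. The named genes of the lower group were led by the U3 small nucleolar RNA Rnu3a, the lipase inhibitor Angptl4, haem oxygenase 1 (Hmox1) and the organic anion exporter Abcc4. The differences widened little with level. With the genes split by level into 4 bins of equal size, their SD was 0.24 in the lowest bin and 0.30 in the third, and the lowest bin held 0 genes at 2-fold.

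**Figure D1:**
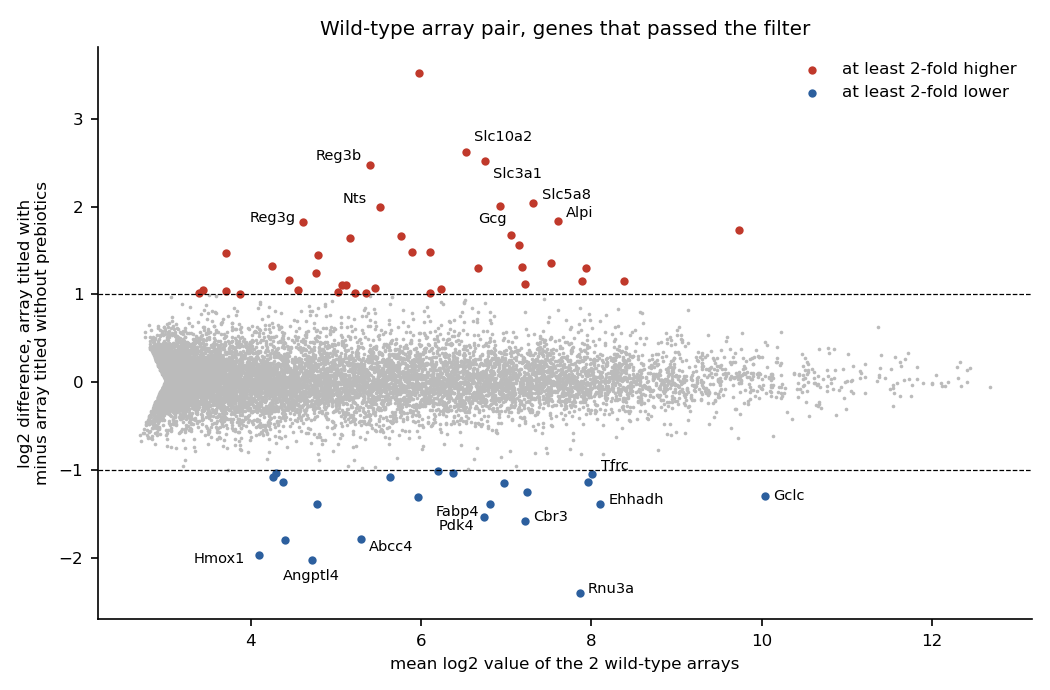
Log2 difference between the 2 WT arrays (titled with minus titled without prebiotics) against the mean log2 value of the pair, 1 point per gene. Dashed lines mark 2-fold; the 41 genes above the upper line are red and the 22 below the lower line are blue, and most lie at mean values of 4 and above.

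Genes of fatty acid oxidation and targets of PPAR alpha were mostly lower on the array titled with prebiotics. Of 36 listed genes that were compared, 30 lay below 0 and 6 above, 5 were at least 2-fold lower and 0 at least 2-fold higher, and their median was -0.30 against 0.02 over all genes. At 1.5-fold, 8 were lower and 0 higher. Angptl4, a secreted inhibitor of lipoprotein lipase and a textbook PPAR target, had 5.73 on the array titled without and 3.71 on the array titled with prebiotics, 4.06-fold lower. Pdk4, the kinase that shuts pyruvate out of oxidation, had 7.51 and 5.97 (-1.54). The peroxisomal enzymes of beta-oxidation Ehhadh and Acaa1b also stood in this group. Ehhadh, the bifunctional enzyme, had 8.80 and 7.41 (-1.38), and Acaa1b, a thiolase, had 7.87 and 6.62 (-1.25). Acot1, a cytosolic thioesterase that releases fatty acids from coenzyme A, had 5.47 and 4.08 (-1.39).

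The mitochondrial enzymes of beta-oxidation named here differed by less than 2-fold. So did other peroxisomal members of the list, among them Decr2, Eci2 and Pex11a. The mitochondrial thiolase Acaa2 had -0.60, the thioesterase Acot2 -0.56 and the electron transfer flavoprotein dehydrogenase Etfdh -0.48. The trifunctional protein subunit Hadha had 10.57 and 10.14 (-0.42), Acadvl, the very long-chain dehydrogenase, -0.41, and Cpt2 of the carnitine shuttle -0.37. Cpt1a, which catalyses the rate-limiting step of entry into mitochondria, had -0.23, and the medium-chain dehydrogenase Acadm -0.17, both inside the SD over all genes of 0.27. A protein of lipid uptake and one of lipid storage were lower as well. The fatty acid receptor Cd36 had 5.80 and 4.82 (-0.98), just short of 2-fold, and the lipid droplet coat protein Plin2 had 8.13 and 7.37 (-0.76). The pantetheinase Vnn1 had 7.18 and 6.60 (-0.58). The receptor Ppara itself had 4.31 and 4.02 (-0.29). Among the 6 members above 0 were the mitochondrial short-chain dehydrogenase Acads at 0.27 and the transcription factor Creb3l3 at 0.26, and the intestinal fatty acid binding protein Fabp2 stood at 0.02.

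In 22 of these 36 genes the WT array titled without prebiotics had the highest value of the 4 arrays, against 25.0% of all genes. That array can be highest only where a gene lies below 0, as 30 of the 36 do, against 5746 of all 12223 genes. The count of 22 thus follows in part from the differences already given. For Angptl4 and Acot1 the 2 KO arrays stood near the WT array titled with prebiotics. Angptl4 had 3.86 and 3.87 on the KO arrays (without, then with), and Acot1 had 3.99 and 3.41. For Pdk4 the KO pair also differed, with 6.94 and 6.05 (-0.89), as it did for Ehhadh with 8.42 and 7.57 (-0.85) and for Cd36 with 6.28 and 5.35 (-0.93). The median of the list in the KO pair was -0.18, against 0.04 over all genes there.

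Some genes on this list are also expressed in fat, and adipocyte markers were lower on the same array. Fabp4, the fatty acid binding protein of adipocytes, macrophages and capillary endothelium, had 7.50 and 6.12 (-1.39). Of 11 adipocyte markers compared, which include Fabp4 and Cd36, 7 lay below 0, 1 was at least 2-fold lower and 4 at least 1.5-fold lower, with a median of -0.32 (-0.13 with no filter). Lipoprotein lipase (Lpl) had -0.71, or -0.42 as the mean over its probe sets, the droplet protein Cidec -0.66 and the adipokine Retn -0.46, while Pck1, the gluconeogenic carboxykinase, had 0.79 and the adipogenic receptor Pparg 0.01. The mean log2 level of the 11 markers was 5.94 on the array titled without and 5.61 on the array titled with, and 5.86 and 5.67 on the KO arrays. The defining markers adiponectin (Adipoq, 2.97 and 2.80), perilipin 1 (Plin1, 2.81 and 2.98) and leptin (Lep, 2.64 and 2.74) were near background on both WT arrays. In bulk tissue, fewer cells of a type and less RNA per cell cannot be told apart.

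Nrf2 targets and enzymes of phase II detoxification were lower too. Of 41 genes compared, 28 lay below 0 and 13 above, 4 were at least 2-fold lower and 0 higher, and the median was -0.16. Gclc, the catalytic subunit of the rate-limiting enzyme of glutathione synthesis, had 10.68 on the array titled without and 9.39 on the array titled with prebiotics, 2.45-fold lower. Its regulatory subunit Gclm had 9.39 and 8.81 (-0.57). Hmox1, which degrades haem and frees its iron, had 5.08 and 3.11 (-1.96), the second value close to background, and 3.85 and 3.78 on the KO arrays. The carbonyl reductase Cbr3 had 8.01 and 6.43 (-1.59), and Abcc4, which exports conjugated organic anions and cyclic nucleotides, had 6.18 and 4.40, 3.44-fold lower. The aldo-keto reductase Akr1b8 followed at -0.96 and malic enzyme Me1, which makes NADPH, at -0.82. Textbook Nrf2 targets below 1.5-fold included the quinone reductase Nqo1 (8.68 and 8.24, -0.44), thioredoxin reductase Txnrd1 (9.33 and 8.99, -0.33), the sulfiredoxin Srxn1 (-0.18) and glutathione reductase Gsr (-0.15). The glutathione transferases Gsta4, Mgst2 and Mgst1 had -0.58, -0.57 and -0.45, and Gstm2, at 0.70, was the member of the list past 1.5-fold in the other direction. The messages of Nrf2 itself (Nfe2l2, 9.32 and 9.28) and of its inhibitor Keap1 (0.09) differed little. In the KO pair Abcc4 differed by -1.47, Cbr3 by -1.11 and Gclc by -0.63. The median of the list there was -0.12, with 27 genes below 0 and 14 above, against a median of 0.04 over all genes.

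The core of the antioxidant response element, to which Nrf2 binds, was searched for as TGACNNNGC on both strands in the 250 bases before each RefSeq start site (GRCm38.p6). It was found for 7 of the 35 list members with a promoter in the table, against 10.2% of the 32851 promoters and 11.5% of genes with any of their promoters counted. Those members were Abcc4, Gclm, Gsta3, Mgst1, Nfe2l2, Txnrd1 and Ugdh. TGAC read on the other strand is the GTCA that ends AGGTCA, the nuclear receptor half-site named below, so the motifs can share bases. The stretches around the match are shown for 3 members whose values are given above, with the motif in capitals. The Abcc4 stretch is chr14:118676932-118676999 on the minus strand, with the match starting 23 bases before the start site. The Gclm stretch is chr3:122245378-122245476 on the plus strand, with the match 134 bases before it, and the Txnrd1 stretch is chr10:82859069-82859167 on the plus strand, with the match 92 bases before it. In Gclm and Txnrd1 the motif reads on the opposite strand.
Abcc4: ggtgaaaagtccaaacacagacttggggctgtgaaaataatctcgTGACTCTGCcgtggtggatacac
Gclm: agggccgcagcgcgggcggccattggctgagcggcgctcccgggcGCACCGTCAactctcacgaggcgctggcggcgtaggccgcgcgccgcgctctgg
Txnrd1: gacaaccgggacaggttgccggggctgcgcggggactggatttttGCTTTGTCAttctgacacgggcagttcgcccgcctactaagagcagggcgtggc
A match describes these letters and is not evidence of binding. For the PPAR alpha list, a single nuclear receptor half-site, AGGTCA, was searched for, and repeats of it were not. It was found in 9 of 32 members (Acadm, Acadvl, Acot4, Cd36, Cpt1a, Creb3l3, Fabp1, Plin2 and Ucp3), against 14.0% of promoters and 15.8% of genes. Among the 10 genes at least 2-fold lower that have a promoter in the table, 0 held it. The antioxidant motif was found in 3 of those 10 (Abcc4, Ehhadh and Oaz1), against 11.5% of genes.

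Genes of iron handling stood beside Hmox1 among the lower genes. Ferroportin (Slc40a1), the exporter through which iron leaves cells, had 6.62 and 5.31 (-1.31), and the transferrin receptor Tfrc, which brings iron into cells, had 8.54 and 7.49 (-1.05). The ferritin heavy chain Fth1, which stores iron, had 11.67 and 11.40 (-0.27). The iron importer Slc11a2 had 0.08 and the ferroxidase Heph 0.25, both inside the SD over all genes, and the duodenal reductase Cybrd1 (0.18) was near background on an array. In the KO pair, without and then with prebiotics, Tfrc had 7.84 and 7.62 and Slc40a1 had 6.23 and 5.99, so for both genes the WT array titled without was the highest of the 4. Also lower were the vitamin A binding protein Rbp2 (5.62 and 4.67, -0.95, or -0.46 as the mean over its probe sets) and the calcium binding protein S100g (7.03 and 6.28, -0.75).

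Among the named genes, nutrient and bile acid transporters led those that were higher on the array titled with prebiotics. Slc10a2, the sodium-dependent bile acid transporter of the apical membrane, had 5.21 on the array titled without and 7.84 on the array titled with prebiotics, 6.17-fold higher. All 13 genes of bile acid uptake, binding and export that were compared lay above 0, 1 at least 2-fold and 2 at least 1.5-fold higher, with a median of 0.19. Slc51a, a subunit of the basolateral bile acid exporter, had 6.05 and 6.96 (0.90), and the organic anion and prostaglandin transporter Slco2a1 had 7.97 and 8.51 (0.55). The intracellular bile acid binding protein Fabp6 (3.10 and 3.36) stood close to background, and the bile acid receptor Nr1h4 (FXR) had 7.02 and 7.21 (0.19). The hormone Fgf15, an FXR target, was near background on both arrays (2.87 and 2.90). In the KO pair, without and then with prebiotics, Slc10a2 had 5.34 and 8.03 (2.68), and on each array of prebiotics by title it was higher than on both arrays without.

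Slc3a1, the heavy subunit of the transporter for cystine and basic amino acids, had 5.49 and 8.01, 5.74-fold higher. Its light subunit Slc7a9 was near background on both arrays (2.85 and 2.83). Of 19 amino acid and peptide transporters compared, 12 lay above 0, 1 was at least 2-fold and 3 at least 1.5-fold higher, with a median of 0.15. The broad sodium and chloride coupled transporter Slc6a14 had 8.72 and 9.55 (0.83), Slc6a20a, which carries proline, had 3.52 and 4.13 (0.61), and Slc7a7, the basolateral exporter of basic amino acids, had 6.56 and 7.11 (0.55). In the KO pair Slc3a1 had 6.03 and 8.06 (2.03).

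Slc5a8, which takes up lactate and short-chain fatty acids with sodium, had 6.30 and 8.34, 4.12-fold higher. Among 27 genes that transport ions or short-chain fatty acids, 17 lay above 0, 1 was at least 2-fold and 2 at least 1.5-fold higher, and the median was 0.15. The chloride and bicarbonate exchanger Slc26a3 had 11.06 and 11.68 (0.62), the sodium and proton exchangers Slc9a3 and Slc9a2 had 0.56 and 0.33, and the channel regulator Clca4a had 0.45. Another monocarboxylate transporter on the list, Slc16a1, had 10.82 and 10.81. The receptors for these acids, Ffar2 (2.71 and 2.73), Ffar3 (2.70 and 2.77) and Hcar2 (2.96 and 2.95), were near background on both arrays, so no difference in them was detectable here. Slc5a8 had 6.65 and 8.50 on the KO arrays. Transporters of sugars, vitamins and metals were mixed, with 15 of 23 above 0, 2 at least 2-fold lower (the iron genes above) and a median of 0.18. The riboflavin transporter Slc52a3 had 0.65, the zinc importer Slc39a4 0.62 and the glucose transporter Slc5a1 0.54. The phosphate transporter Slc34a2, from a value close to background, had 3.19 and 4.23 (1.04).

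Brush border enzymes were higher as a group. Of 18 compared, 17 lay above 0, 3 were at least 2-fold higher, 5 at least 1.5-fold higher and 0 lower by that size, with a median of 0.34 (0.18 with no filter). In 12 of the 18 the WT array titled without had the lowest value of the 4 arrays, against 28.3% of all genes. That array can be lowest only where a gene lies above 0, as 17 of the 18 do, against 52.9% of all genes. The count of 12 thus follows in part from the differences already given. Alpi, the intestinal alkaline phosphatase, which strips phosphate from bacterial lipopolysaccharide, had 6.69 and 8.52, 3.57-fold higher. The metalloprotease subunit Mep1b had 6.85 and 8.21 (1.36) and its partner Mep1a had 8.27 and 8.95 (0.67). The aminopeptidases Enpep and Anpep had 1.12 and 0.52, and the protocadherin Cdhr2, which links microvilli, had 0.59. The exception was the peptidase Naaladl1, with 4.54 and 4.23 (-0.31) in the WT pair and 3.10 and 5.77 on the KO arrays. Other genes of the differentiated surface epithelium at 2-fold were Tmigd1, a cell adhesion protein (7.81 and 8.96, 1.15), and Mal, a protein of apical sorting (7.28 and 8.59, 1.30). The purinergic receptor P2ry2 had 4.03 and 5.08 (1.05), and Plet1, a lipid-anchored surface protein of epithelia, had 3.86 and 5.03 (1.17).

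Several of these genes are known as markers of the ileum, which joins the gut at the caecum, so regional markers are given whole. Of 28 ileum-enriched enterocyte genes compared, 23 lay above 0, 7 were at least 2-fold higher and 0 at least 2-fold lower, with a median of 0.24 and of 0.55 in the KO pair. Their mean log2 level was 5.36 and 5.96 on the WT arrays and 5.26 and 6.17 on the KO arrays. The 7 were Slc10a2, Slc3a1, Reg3b, Nts, Alpi, Reg3g and Enpep. Other listed genes of digestion and fat transport differed by less. Lct was near background on both arrays, sucrase-isomaltase (Sis) had 3.03 and 3.23, and the glucosidase Mgam had 0.14. The apolipoprotein Apoa4 differed by 0.04 in the WT pair and by 1.59 in the KO pair, and Apoa1, Apob and Apoc3 had 0.40, 0.21 and -0.04 in the WT pair. The lipid transfer protein Mttp had 0.17. Rbp2, also on the list, was lower, as given above. Of 20 genes on the colon-enriched list, 14 lay above 0, 2 were at least 2-fold higher (Slc5a8 and Ly6g) and the median was 0.20. Ly6g is also counted below as a neutrophil marker, and it was near background on the array titled without (2.98). Of 13 markers of mature colonocytes, 12 lay above 0, 1 was at least 2-fold higher (Tmigd1) and 4 at least 1.5-fold higher, with a median of 0.27. The adhesion protein Ceacam20 had 0.75, the carbonic anhydrase Car4 0.47, the water channel Aqp8 0.26 and Car1 0.14. The part of tissue sampling along the gut in these differences was not tested. The lists share members, so their counts are not independent. Over 11 general epithelial markers the median was 0.05, and 6 lay above 0.

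Antimicrobial and defence genes of the epithelium that passed the filter were mostly higher. Of 18 compared, 15 lay above 0, 2 were at least 2-fold higher and 7 at least 1.5-fold higher, with a median of 0.38. The median was 0.088 over all 32 listed genes with a probe set of their own and 0.23 over the 15 above the array median on both arrays. Reg3b, a lectin that kills bacteria, had 4.17 and 6.64, 5.57-fold higher, and its relative Reg3g, which acts on Gram-positive bacteria, had 3.71 and 5.53 (1.83). The acute-phase serum amyloid genes are represented by a probe set that names both Saa1 and Saa2, which was chosen after its values were seen and had 4.41 and 7.23 (2.82). Saa3 had 6.82 and 7.62 (0.80). The oxidase Duox2, which makes hydrogen peroxide, had 2.86, near background, and 3.72 (0.86), and the oxidase Nox1 had 6.86 and 7.38 (0.52). The peptidoglycan recognition protein Pglyrp1 had 0.80, the cornified envelope protein Sprr1a 0.84, and the receptor subunit for interleukin 22, Il22ra1, 5.37 and 6.19 (0.82). In the KO pair Reg3b had 3.18 and 6.51, Reg3g 3.63 and 4.86, and the Saa1 and Saa2 probe set 3.95 and 7.44 in that order. The median of the antimicrobial list in the KO pair was 0.12.

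Paneth cell products were mixed in the WT pair, and Ang4 and Lyz1 are also on the antimicrobial list. The antimicrobial ribonuclease Ang4 had 6.16 and 6.84 (0.68) in the WT pair and 7.42 and 5.71 (-1.71) in the KO pair. Lysozyme 1 (Lyz1) had 4.13 and 3.68 (-0.45), against 3.75 and 6.02 in the KO pair, and the alpha-defensin Defa22 had 3.68 and 2.72, near background (-0.96), against a KO difference of 5.03. Of 6 genes compared from the Paneth cell list, 2 lay above 0, with a median of -0.21 in the WT pair and 1.40 in the KO pair. The 6 were Ang4, Lyz1, Defa21, Defa22, Guca2b and Nupr1. Guca2b is also on the list of mature colonocytes, so the list is not specific to Paneth cells. The WT median has no settled sign, being 0.17 with the filter at the 75th percentile and 0.074 over the 4 genes above the array median on both arrays. Whether the pairs differ was not tested. The alpha-defensins are a family of closely similar genes, and which of them gave the signal is uncertain.

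Peptide hormones of enteroendocrine cells were among the higher genes. Nts, neurotensin, a gut peptide released after fat is eaten, had 4.53 and 6.52, 3.98-fold higher. Gcg, proglucagon, from which L cells make GLP-1 and GLP-2, had 6.22 and 7.90, 3.19-fold higher. Peptide YY (Pyy), made by the same cells, had 6.05 and 6.98 (0.93), cholecystokinin (Cck) had 3.32 and 4.04 (0.72), and the granule protein chromogranin A (Chga) had 4.82 and 5.45 (0.63). The KO values of Nts were 4.47 and 6.66, and those of Gcg were 6.83 and 8.04. Of 16 endocrine markers compared, 10 lay above 0, 2 were at least 2-fold and 5 at least 1.5-fold higher, with a median of 0.15. The other 6 lay below 0, the lowest at -0.36. The granule protein Chgb (-0.11), secretin (Sct, 0.18) and the serotonin enzyme Tph1 (0.12) differed little, and the colonic peptide Insl5 was near background on the array titled without and on the array titled with (2.70 and 3.01).

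**Figure D2:**
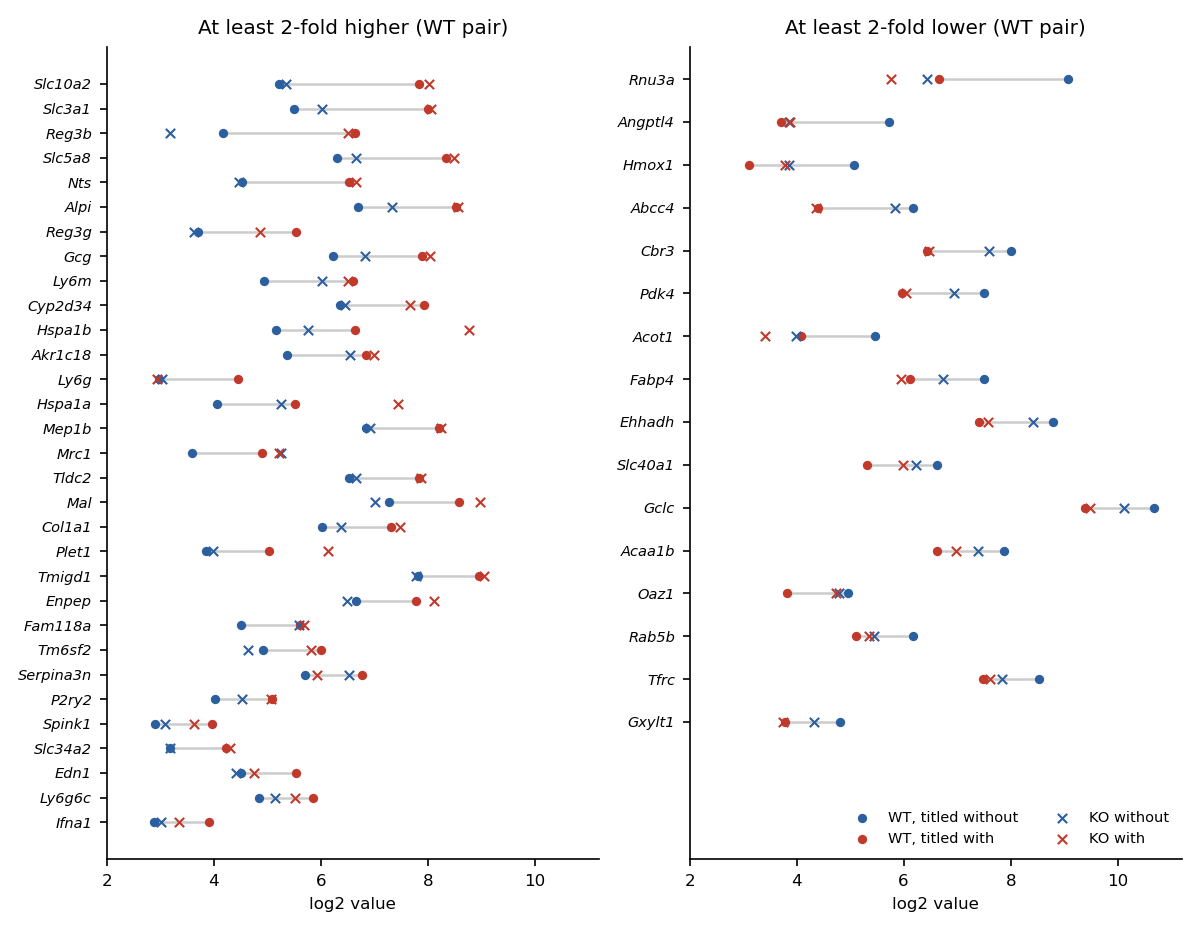
Log2 values on all 4 arrays for the 31 named genes at least 2-fold higher (left) and the 16 at least 2-fold lower (right) on the WT array titled with prebiotics. Circles are WT arrays and crosses KO arrays, blue without and red with prebiotics by title, and grey lines join the WT pair. Slc10a2, Slc3a1 and Slc5a8 lie close together by diet in both genotypes. Angptl4 is high on the WT array titled without and similar on the other 3. Hmox1 is highest on the WT array titled without and lowest on the WT array titled with, with the KO arrays between.

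The heat shock genes Hspa1a and Hspa1b, which encode the inducible HSP70 chaperone, stood apart from their list. Hspa1b had 5.16 and 6.64, 2.79-fold higher, and Hspa1a had 4.07 and 5.52, 2.74-fold higher. In the KO pair, without and then with prebiotics, they had 5.77 and 8.78, and 5.25 and 7.44. The other 16 chaperones compared stayed under 1.5-fold, 11 of the 18 lay below 0, and the list's median was -0.04. Bag3, a partner of HSP70, had 0.40, Dnajb1 0.27, Hspa8 0.15, Hsp90aa1 -0.29 and Stip1 -0.42. The genes are near-identical neighbours, so their signals may come from either copy. Their promoter stretches illustrate this, with the heat shock element in the form GAANNTTC in capitals. Hspa1a lies at chr17:34972208-34972305 and Hspa1b at chr17:34959290-34959387, both on the minus strand (GRCm38.p6), and in each the match starts 104 bases before the start site.
Hspa1a: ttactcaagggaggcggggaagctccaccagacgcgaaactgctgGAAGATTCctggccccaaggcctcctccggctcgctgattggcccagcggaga
Hspa1b: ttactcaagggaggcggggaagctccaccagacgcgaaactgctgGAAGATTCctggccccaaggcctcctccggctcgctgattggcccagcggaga
The 98 bases are the same in both. Searched on both strands in the 250 bases before the start site, this motif was found for 5 of 15 listed chaperones with a promoter (Hspa1a, Hspa1b, Hspb1, Hspd1 and Hspe1) and for 4 of 25 genes at least 2-fold higher (Fam118a, Hspa1a, Hspa1b and Reg3g), against 6.69% of promoters and 7.73% of genes. In both counts Hspa1a and Hspa1b, with the same stretch, add 2, so the members counted are not independent. Hspb1, Hspd1 and Hspe1 hold the motif, and Hspb1 and Hspd1 had -0.39 and -0.27. Hspb1 was close to background on the array titled with (3.07), and its other probe set, below the filter, had 0.03.

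Matrix and macrophage genes were mostly higher on the array titled with prebiotics. Col1a1, the main chain of type I collagen, had 6.02 and 7.32 (1.30), and its partner Col1a2 had 5.63 and 6.44 (0.81), or 0.34 as the mean over its probe sets. Of 32 genes of collagen and matrix remodelling, 25 lay above 0, 1 was at least 2-fold and 5 at least 1.5-fold higher, with a median of 0.14. In 21 the WT array titled without was the lowest of the 4, against 28.3% of all genes. This is possible only for the 25 above 0, so the count follows in part from the differences. The proteoglycan Bgn had 0.63, the gelatinase Mmp2 0.61 and the collagen chaperone Sparc 0.54. The KO array without prebiotics had 6.39 for Col1a1 and 6.93 for Mmp2, against 6.02 and 5.89 on the WT array titled without. Of 17 fibroblast markers 12 lay above 0, with a median of 0.06, and the mean level of the list was 5.34 and 5.50 on the WT arrays and 5.75 and 5.78 on the KO arrays. The mannose receptor Mrc1, a marker of tissue macrophages, had 3.59 and 4.91 (1.32), against 5.26 and 5.21 on the KO arrays. The complement chain C1qb had 5.06 and 5.85 (0.79) and the lysosomal marker Cd68 4.26 and 4.88 (0.62). Of 15 macrophage and dendritic cell markers, 10 lay above 0, 1 was at least 2-fold and 3 at least 1.5-fold higher, with a median of 0.23 (0.088 with no filter). Of the 15, 5 lay below 0, the lowest at -0.57. The macrophage marker Adgre1 had -0.23, and Cd163 was near background on both WT arrays.

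Muscle markers went the other way by small amounts. Of 20 smooth muscle markers, all of which were compared, 19 lay below 0, with a median of -0.22 and none at 2-fold. Myosin heavy chain Myh11 had 9.90 and 9.38 (-0.53), the light chain Myl9 -0.52, calponin (Cnn1) -0.43 and the actin Acta2 -0.06, and the actin-binding protein Synpo2 had 5.66 and 4.77 (-0.88). The mean level of the list was 6.83 and 6.56 on the WT arrays and 7.05 and 6.92 on the KO arrays. Of 10 markers of enteric neurons, glia and pacemaker cells, 6 lay below 0, with a median of -0.20 (0.0039 with no filter), and the neuropeptide Vip had 4.36 and 3.76 (-0.60). Of 16 endothelial markers, 10 lay below 0, with a median of -0.03. The growth factor receptor Kdr had 5.57 and 4.83 (-0.74) and Pecam1, the adhesion molecule of all endothelium, -0.05. The part of these tissue layers in the differences of other genes was not tested.

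Markers of lymphoid cells were split. Of 6 plasma cell markers all lay above 0, with a median of 0.42 (0.26 with no filter), and the immunoglobulin joining chain Jchain had 7.56 and 8.26 (0.70). Of 11 B cell markers 5 lay above 0, with a median of -0.11 (-0.47 in the KO pair, where all 11 lay below 0), and of 12 T and NK cell markers 8 lay above 0, with a median of 0.11. With the filter at the 75th percentile both signs turned, to 0.16 for B cells and -0.26 for T and NK cells, and over the 6 T and NK markers above the array median on both arrays the median was -0.053. Among 17 immunoglobulin segments and constant regions, 14 lay above 0, 5 were at least 2-fold higher and 0 lower, with a median of 0.56 in the WT pair and -0.36 in the KO pair. A light chain segment, Igkv8-30, had 4.22 and 7.74 in the WT pair and 6.02 and 4.92 on the KO arrays. Segments of a family resemble each other, so the segment behind a signal is uncertain, and Igkv8-30 was named after its values were seen.

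Among 65 small nucleolar RNAs, 6 were at least 2-fold lower and 1 at least 2-fold higher, with a median of -0.03. Rnu3a, the U3 RNA that guides cleavage of ribosomal RNA precursors, had 9.06 and 6.66, 5.29-fold lower, and 6.44 and 5.76 on the KO arrays. The WT array titled without was the highest of the 4 for this RNA.

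The other named genes at 2-fold belong to several functions. Cyp2d34, a cytochrome P450, had 6.36 and 7.93 (1.56). The list of P450 enzymes and xenobiotic receptors was mixed, with 11 of 20 above 0, 5 at least 1.5-fold higher, 1 lower and a median of 0.05. Cyp4f14 had 0.78, Cyp2d26 0.71, Cyp2s1 0.70 and Cyp4b1 -0.77, and the pregnane X receptor Nr1i2 had 7.11 and 6.57 (-0.55). The steroid-reducing Akr1c18 had 5.37 and 6.84 (1.48), and 6.54 and 6.99 on the KO arrays. The Ly6 family members Ly6m (4.94 and 6.60), Ly6g (2.98, near background, and 4.45) and Ly6g6c (4.84 and 5.86) were higher by 1.66, 1.47 and 1.02, and for Ly6g the KO arrays had 3.03 and 2.94. The vasoconstrictor peptide endothelin 1 (Edn1) had 4.51 and 5.54 (1.03). The protease inhibitors Serpina3n and Spink1 (2.91, near background, and 3.96) had 1.06 and 1.05, and Serpina3n differed by -0.58 in the KO pair. Tm6sf2, which acts in lipoprotein secretion, had 4.93 and 6.00 (1.08), and Tldc2, Fam118a and the interferon Ifna1 (2.89, near background, and 3.90) had 1.31, 1.10 and 1.02. On the lower side were Oaz1, antizyme, which limits polyamine synthesis (4.95 and 3.82, -1.14), Rab5b of early endosomes (6.18 and 5.10, -1.08) and Gxylt1, a xylosyltransferase (4.81 and 3.78, -1.03), whose mean over its probe sets was -0.72.

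The lists in this paragraph had medians between -0.12 and 0.06, against 0.02 over all genes. Of 22 genes of lipogenesis, desaturation and elongation, 15 lay below 0, with a median of -0.12, 2 at least 1.5-fold higher (Fads3 at 0.90 and the triglyceride synthase Dgat1 at 0.89) and 1 lower (Me1, given above). Of 22 genes of cholesterol synthesis and uptake, 13 lay above 0, with a median of 0.06 and none at 1.5-fold. Oxidative phosphorylation had 27 of 43 genes below 0 and a median of -0.07, within a range of -0.28 to 0.31. The cell cycle list had 17 of 33 above 0 and a median of 0.00, with the proliferation marker Mki67 at -0.28. Goblet cell genes had 11 of 22 above 0 and a median of -0.01. Since the study's title concerns endothelial dysfunction, the nitric oxide and arginine list was examined. It had 6 of 15 genes above 0 and a median of -0.02. The endothelial synthase Nos3 had 3.11 and 2.99, the inducible synthase Nos2 was near background on both arrays (2.80 and 2.94), and arginase 2 (Arg2), which competes for arginine, had 6.39 and 5.63 (-0.76).

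**Figure D3:**
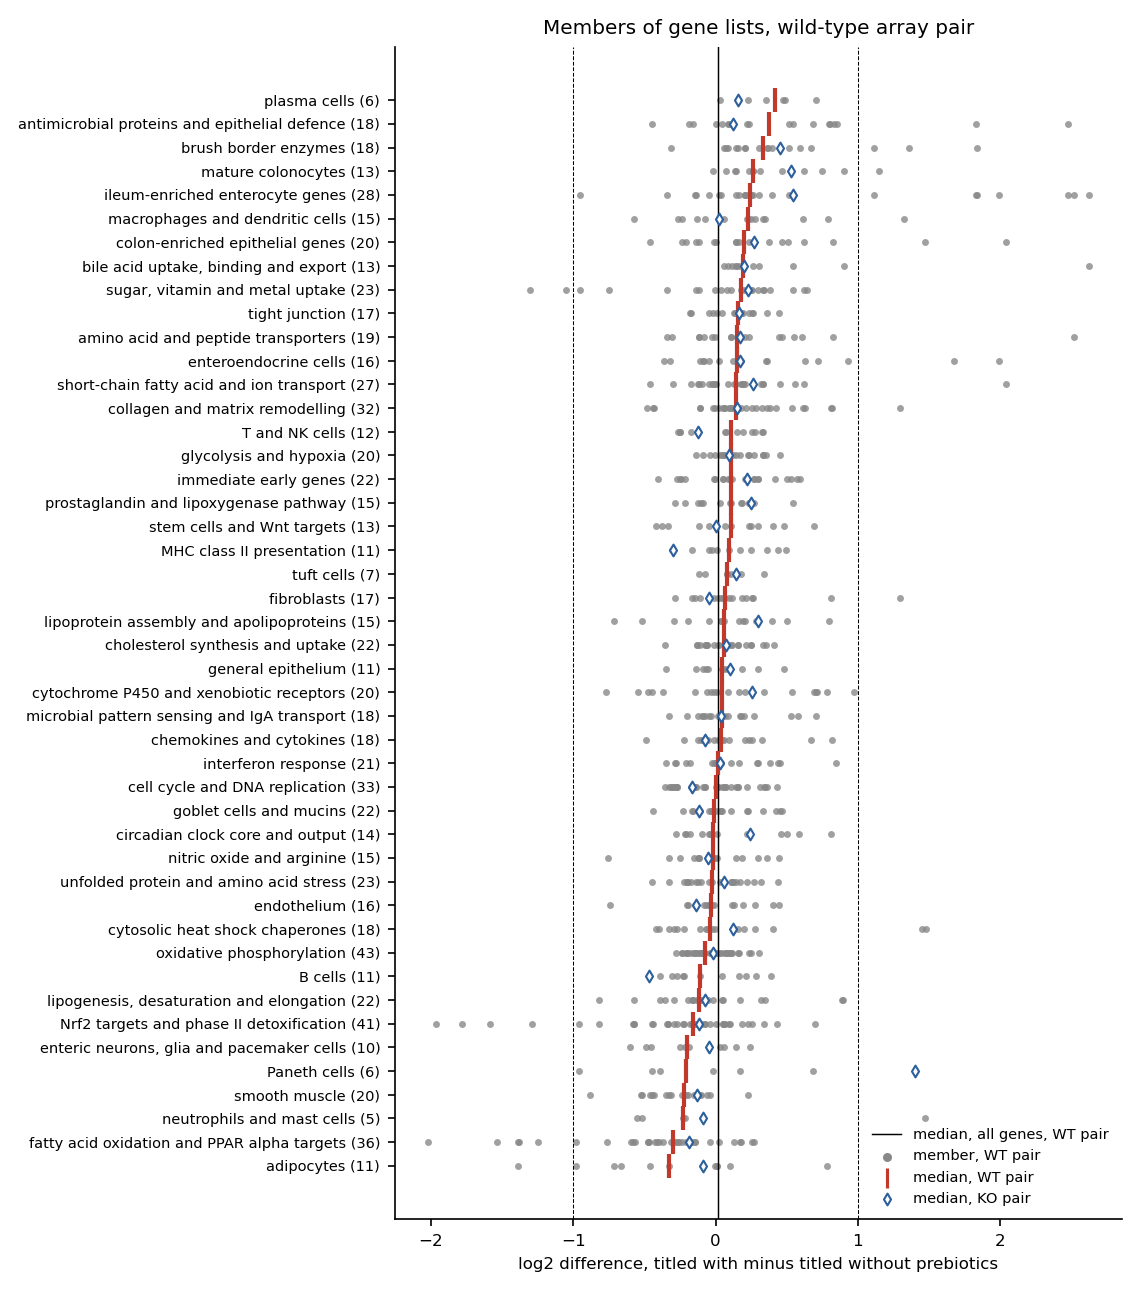
Log2 differences in the WT pair (titled with minus titled without prebiotics) of the members of 46 gene lists that were compared, 1 grey point per gene, ordered by the list's median (red bar), with the list's median in the KO pair (blue diamond) and the number of members in brackets. The solid line is the median of all genes in the WT pair and dashed lines mark 2-fold; fatty acid oxidation and PPAR alpha targets have 5 points left of the lower line and ileum-enriched enterocyte genes have 7 right of the upper line.

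The same genes were read in the KO pair, which carries no label conflict. Of the 41 genes higher in the WT pair, 35 lay above 0 in the KO pair, 20 were at least 2-fold higher there, 2 at least 2-fold lower, and their median was 0.55. Of the 22 lower in the WT pair, 19 lay below 0, 2 were at least 2-fold lower, 8 at least 1.5-fold lower, and their median was -0.44. Over the 12223 genes, 56.7% lay above 0 in the KO pair, 0.466% were at least 2-fold higher, 0.131% at least 2-fold lower, 2.54% at least 1.5-fold higher and 1.09% at least 1.5-fold lower. Over all of them, the differences of the pairs had a Pearson's r of 0.32 and Spearman's rho 0.28, as a description, since genes are not independent replicates and each difference rests on single pooled arrays. The WT array titled without prebiotics lay outside the range of the other 3 arrays for 30 of the 41 higher and all 22 lower genes, the WT array titled with for 21 and 14, and over all 12223 genes these counts were 6512 and 5970. A large difference within the WT pair was how the 63 were chosen, which in part fixes their counts. Genes with a KO difference close to 0 included Angptl4 (0.01), Hmox1 (-0.07), Mrc1 (-0.04), Ly6g (-0.09) and Fam118a (0.10). The 2 lower genes that were at least 2-fold lower in the KO pair as well were Abcc4 (-1.47) and Cbr3 (-1.11). Genes with a larger KO than WT difference included Reg3b (3.33 against 2.48), Hspa1b (3.01 against 1.48), Plet1 (2.15 against 1.17) and Enpep (1.63 against 1.12). None of these differences between the genotypes was tested.

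**Figure D4:**
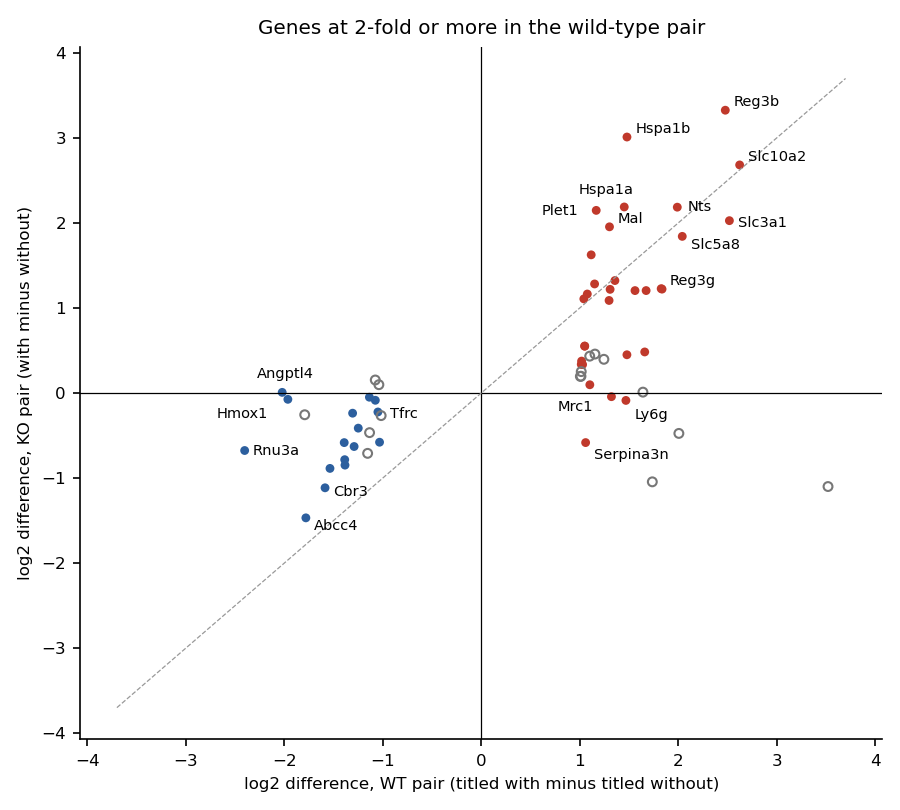
Log2 difference in the KO pair (with minus without prebiotics) against that in the WT pair (titled with minus titled without) for the 63 genes at 2-fold or more in the WT pair; filled points are named genes, open circles other genes, and the dashed line marks equal differences. Of the 41 genes on the right, 35 lie above 0 in the KO pair, and of the 22 on the left, 19 lie below 0.

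Near the limit, the named genes just inside on the higher side were Slc34a2 (1.04), Edn1 (1.03), Ly6g6c (1.02) and Ifna1 (1.02), and those just outside were Ms4a10 (0.99), Rsph3b (0.98), Cyp4f15 (0.98) and Ereg (0.97). On the lower side, Oaz1 (-1.14), Rab5b (-1.08), Tfrc (-1.05) and Gxylt1 (-1.03) were just inside, and Gnai1 (-0.9993), Syne1 (-0.99), Cd36 (-0.98) and Akr1b8 (-0.96) just outside. For Syne1, which has 59 probe sets, the mean over them was -0.45, and for Ereg, with 2, it was 0.60. Genes on either side of the limit thus differ by a few hundredths of a log2 unit.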

How the data were processed

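Per the submitters' processing notes, the deposited log2 values were made by the authors with Affymetrix Expression Console and RMA, which subtracts background, equalises the arrays' distributions and summarises probes, and which compresses differences near background. RMA implies log base 2, which no label states, and the genome build is not given in the sources used here. The table held 41345 probe sets, of which 23521 had 1 gene symbol in the platform annotation, 1814 several and 16010 none. A gene was represented by the probe set of highest mean value across all 4 arrays (1082 of 22180 genes had several) and was compared if it reached the 50th percentile of 1-symbol probe sets on at least 1 WT array. RefSeq (GRCm38.p6) held 99.2% of gene identifiers and changed 0 symbols.

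Differences were computed in Python 3.11.15 and counted at 2-fold and 1.5-fold without a test, after a check on simulated data. Promoters came from RefSeq. Members, 49 gene lists and settings were chosen with earlier results of these data known. Of 1086 listed genes, 987 had a probe set and 777 were compared. Named were genes at 2-fold (up to 30 each way by size, to which the smallest higher gene was added as one of the 4 nearest the limit), up to 10 members of each list and members whose role is described. Predicted genes, microRNAs, small nucleolar RNAs and immunoglobulin or receptor segments were counted and, with the exceptions stated, not named. Alternatives were other filters, the mean over probe sets, centring, and quantile or cyclic loess normalization (limma 3.58.1, R 4.3.3). The number of arrays limits the precision.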

Additional observations from a re-analysis of the deposited data

Results flagged for a closer look

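Among the genes at 2-fold in the WT pair and the members of the gene lists, 4 were at least 1.5-fold higher in one pair and at least 1.5-fold lower in the other. Defa22 had a log2 difference of -0.96 in the WT pair and 5.03 in the KO pair, a gap of 5.98, with values near background on the WT array titled with (2.72) and the KO array without (2.84), so that neither size is well determined. Ang4 had 0.68 and -1.71, a gap of -2.39. The light chain segment Igkv8-30 had 3.52 and -1.10, a gap of -4.62, and another segment of the kappa light chain had 1.74 and -1.04, a gap of -2.78. Each pair has 1 array per diet, the sign of every WT value depends on the label field used, and these differences were not tested.

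Probe sets outside the comparison of single genes also differed. Among those that name several genes, 2 of 899 that passed the filter were at least 2-fold higher and 0 lower. They are the Saa1 and Saa2 probe set described above and one that names Ighg3, Ighv1-47 and Ighm, with 9.40 and 10.53 in the WT pair. Among 7288 probe sets with no gene symbol here, 470 differed by at least 2-fold, 244 higher and 226 lower, with differences from -3.04 to 4.42. They could not be named.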

How the results depend on the processing

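Grouping the WT arrays by description in place of title turned every sign and gave 22 genes higher and 41 lower. Under the other alternatives the counts at 2-fold stayed between 36 and 42 higher and 21 and 24 lower. Of the 41 higher genes, 36 remained with a filter at the 75th percentile, which tests fewer genes (5963), and 37 with the differences centred on their median of 0.02; all 22 lower genes remained except Gxylt1 with the mean over probe sets. At 1.5-fold, centring gave 226 higher and 158 lower. Of 1101 values recomputed for 189 named genes, none changed sign where the main difference was at 2-fold, and 6 moved by more than the SD over genes, all with the mean over probe sets and all given above. With 1 array per group no array could be left out and no paired fit made. No paired analysis was possible because each group has 1 array.

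Of 321 list medians recomputed, 37 moved by more than the SD over genes divided by the square root of the list's size, a yardstick chosen here because there are no replicates, and the median of 12 lists changed sign under an alternative, the largest main value among them being -0.21. With no filter the medians were 0.088 for antimicrobial genes, 0.10 for sugar, vitamin and metal uptake, 0.18 for brush border enzymes, 0.035 for unfolded protein stress, -0.043 for Paneth cells, 0.088 for macrophages, -0.068 for neutrophils and mast cells, 0.26 for plasma cells, -0.13 for adipocytes and 0.0039 for enteric neurons. With the 75th percentile filter they were -0.022 for cytochrome P450, 0.10 for the clock, 0.21 for immediate early genes, 0.52 for antimicrobial genes, 0.25 for sugar, vitamin and metal uptake, 0.24 for prostaglandins, -0.071 for the cell cycle, 0.24 for matrix, 0.41 for ileum-enriched and 0.26 for colon-enriched genes, 0.78 for endocrine cells, 0.17 for Paneth cells, 0.33 for macrophages, 0.16 for B cells, -0.26 for T and NK cells, -0.33 for smooth muscle and -0.46 for adipocytes. With members above the median on both arrays they were 0.23 for antimicrobial genes, 0.11 for sugar, vitamin and metal uptake, 0.17 for lipoprotein assembly, 0.074 for Paneth cells, -0.37 for neutrophils and mast cells, -0.22 for B cells, -0.053 for T and NK cells and -0.092 for enteric neurons. With the mean over probe sets they were 0.19 for immediate early genes and -0.050 for general epithelium. The filters change which members are counted; otherwise the cause was not tested. Signal near background limits what can be read for Fgf15, the short-chain fatty acid receptors and the defining adipocyte markers.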

Other observations

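Several lists that the comparison above does not describe are given here, with medians in the WT pair between -0.01 and 0.16. The clock, immediate early and stem cell lists held genes past 1.5-fold, and the tight junction and glycolysis lists held 0. Of 14 genes of the circadian clock 7 lay above 0, with a median of -0.01, and the members past 1.5-fold were the repressors Nr1d2 (4.31 and 5.12 on the array titled without and the array titled with, 0.81) and Nr1d1 (4.90 and 5.49, 0.59); the clock gene Per1 had 0.50. Of 22 immediate early genes 15 lay above 0, with a median of 0.11 in the WT pair and 0.22 in the KO pair, and Klf4 (8.22 and 8.81, 0.59) was past 1.5-fold, with the phosphatase Dusp1 at 0.58. Of 17 tight junction genes 13 lay above 0, with a median of 0.16, and the claudin Cldn23 had 0.44. Of 20 genes of glycolysis and hypoxia 16 lay above 0, with a median of 0.11, led by the hexokinase Hk2 (6.07 and 6.52, 0.45). Of 13 stem cell and Wnt genes 8 lay above 0, with a median of 0.11; the growth factor inhibitor Lrig1 had 0.69, and the stem cell marker Lgr5 had 0.40, or 0.19 as the mean over its 2 probe sets.

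The medians of the immune lists in this paragraph lay between -0.23 and 0.10, and those of the antimicrobial, macrophage and lymphoid lists are given above. The interferon list had 14 of 21 genes above 0 and a median of 0.02, with Oas1g (3.66 and 4.51, 0.85) past 1.5-fold. The chemokine and cytokine list had 11 of 18 above 0 and a median of 0.04, with Il22ra1 at 0.82 and the chemokine Cx3cl1 (4.72 and 5.39) at 0.67. MHC class II genes had 7 of 11 above 0 and a median of 0.10, against -0.30 in the KO pair. The list of microbial sensing and IgA transport had 10 of 18 above 0 and a median of 0.04, with the adaptor Myd88 at 0.58. Of 5 neutrophil and mast cell markers 4 lay below 0, with a median of -0.23, the one above 0 was Ly6g (1.47, and near background on the array titled without), and the mast cell proteases Mcpt2 and Mcpt1 had -0.55 and -0.52. Of 7 tuft cell markers 5 lay above 0, with a median of 0.08. The prostaglandin and lipoxygenase list had 10 of 15 above 0 and a median of 0.11, and the unfolded protein and amino acid stress list had 11 of 23 above 0 and a median of -0.02. Of 15 apolipoproteins and genes of lipoprotein assembly 10 lay above 0, with a median of 0.06, and Apoc2 had 3.18 and 3.98 (0.80), against 1.22 in the KO pair. Among 119 microRNA genes, 1 was at least 2-fold higher and 1 at least 2-fold lower.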
